A study of Mus musculus with 12 samples.

Results

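Mature migratory dendritic cell (DC) genes were examined in RNA-seq counts of mouse bone marrow-derived DCs in which *Ppargc1b* had been knocked down. The list held 10 genes (*Ccr7*, *Ccl17*, *Ccl22*, *Fscn1*, *Cd83*, *Socs2*, *Il4i1*, *Cd200*, *Birc3* and *Ccl9*) of 55471 in the table, matched by symbol, and all 10 were among the 18228 genes that passed the filter on low counts. The genes were chosen by their function together with the measured knockdown differences of *Ccr7*, *Ccl17* and *Ccl22*, which were higher in the knockdown, so the knockdown comparisons describe these genes and do not test them. The response to interferon-β (IFN-β) and the difference between both knockdown effects (the interaction) were tested.

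The cells were grown from marrow of C57BL/6 mice in GM-CSF, the growth factor of granulocytes and macrophages, and in the study's methods the animals were female. All 4 groups carried a retroviral LMP vector with a human CD8 reporter, on which transduced cells were sorted. The control hairpin (shControl) targeted firefly luciferase, which mouse cells lack, and the other (sh*Ppargc1b*) targeted the message of PGC-1β, a co-activator of transcription. Each was left unstimulated or received IFN-β for 6 h, with 3 libraries per group and 12 in all. No second *Ppargc1b* hairpin was among the groups analysed here, so effects of this hairpin on other transcripts cannot be told apart from those of the knockdown. The labels do not say whether libraries of a group came from separate animals or cultures, and p-values therefore measure the spread between these libraries, which may be technical. *Ppargc1b* itself fell to 19.4 ± 0.851 from 34.5 ± 1.94 CPM (counts scaled to the size of each library) without IFN-β (SD, n = 3), and stood at 18.7 ± 2.83 against 27.8 ± 3.93 CPM with it.

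Immature DCs take up antigen in tissues. On maturation they lose inflammatory chemokine receptors, gain the receptor CCR7 and follow its ligands CCL19 and CCL21 through lymph to the lymph node, where they present antigen to T cells. Mature DCs also release CCL17 and CCL22, which draw CCR4-bearing T cells, display CD83, and extend long actin-rich processes bundled by fascin, the product of *Fscn1*. Several checkpoints accompany this state: IL4I1 is a secreted enzyme that consumes amino acids, CD200 engages an inhibitory receptor on myeloid cells, and SOCS2 belongs to the family of cytokine signalling suppressors. *Birc3* encodes cIAP2, a ubiquitin ligase of tumour necrosis factor receptor signalling, and *Ccl9* a chemokine that binds CCR1.

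*Ccl22* (chromosome 8, 94745590 to 94751699, GRCm38) and *Ccl17* (chromosome 8, 94810453 to 94812036) lie on the same strand with *Cx3cl1* (94772009 to 94782427) between them. The remaining members lie apart from this pair, *Ccr7* (99144196 to 99155077) and *Ccl9* (83572919 to 83578636) both on chromosome 11. The set of RefSeq promoter sequences used here (GRCm38.p6) held 7 members, and *Ccr7*, *Cd83* and *Socs2* were not in it. The sequences before the start sites of the 3 chemokine genes are shown because *Ccl17* and *Ccl22* are neighbours of which only the latter passed the test for IFN-β, and *Ccl9* had the highest level per length of the list in shControl cells. They are printed 5′ to 3′ on the gene's strand, in lower case, with motif matches in capitals, and stop where the GENCODE gene begins.
Ccl17 (chr8:94810203-94810452, plus strand): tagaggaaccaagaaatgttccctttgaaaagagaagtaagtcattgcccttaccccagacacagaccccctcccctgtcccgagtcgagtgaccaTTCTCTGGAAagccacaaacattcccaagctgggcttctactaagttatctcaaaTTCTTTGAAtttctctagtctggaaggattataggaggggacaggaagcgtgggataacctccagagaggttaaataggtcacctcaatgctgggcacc
Ccl22 (chr8:94745434-94745589, plus strand): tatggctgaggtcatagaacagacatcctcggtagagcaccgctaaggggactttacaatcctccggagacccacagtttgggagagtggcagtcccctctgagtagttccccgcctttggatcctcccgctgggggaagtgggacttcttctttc
Ccl9 (chr11:83578637-83578886, minus strand): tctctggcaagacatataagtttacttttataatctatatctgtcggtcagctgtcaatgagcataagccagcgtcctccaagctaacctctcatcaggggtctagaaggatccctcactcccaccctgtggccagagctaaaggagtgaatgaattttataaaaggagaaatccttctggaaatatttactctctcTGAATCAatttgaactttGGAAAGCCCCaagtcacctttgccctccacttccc

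In these windows 5 motifs were searched on both strands: the κB consensus of NF-κB, the interferon-stimulated response element (GAAA and again GAAA with any 2 bases between), the STAT motif (TTC and GAA with any 3 bases between), the STAT6 motif (TTC and GAA with any 4 bases between) and the AP-1 motif TGANTCA. The capitals in *Ccl17* mark a STAT6 motif at -154 to -145 and a STAT motif at -99 to -91 from the start site. In *Ccl9* they mark an AP-1 motif at -53 to -47 and, on the opposite strand, a κB consensus at -35 to -26. The windows of *Ccl22*, *Fscn1*, *Il4i1*, *Cd200* and *Birc3* held none of the 5. Over 32851 mouse promoter windows of 250 bases, 5.85% held the STAT6 motif, 7.02% the STAT motif, 6.75% the AP-1 motif, 3.9% the κB consensus and 2.98% the response element, so each match is a description of the sequence and not a mapped site.

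Library totals ranged from 49.9 to 77.7 M counts. Member counts ran from 596 to 181920 per library, and the counting error at the lowest of these was 4.1%. All CPM values were scaled with TMM factors, which correct for library composition. Markers of other cells were checked in the same libraries. The 7 lymphocyte markers were each under 1 CPM on average in every group, as were *Cd207* and *Epcam* of Langerhans cells. The summed level of 10 DC markers was 3741 to 4396 CPM in unstimulated shControl, 4322 to 4938 in unstimulated sh*Ppargc1b*, 3965 to 4776 in IFN-β-treated shControl and 4651 to 5280 in IFN-β-treated sh*Ppargc1b* libraries. Of these, *Cd209a* was under 1 CPM in all groups, and *Cd74* and *H2-Ab1* did not differ past the threshold with the knockdown (log2 fold change 0.17 and 0.13 without IFN-β, adjusted p = 0.215 and 0.333).

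Per kilobase of exon, the chemokines stood far above the other members. In unstimulated shControl cells *Ccl9* had 658.7 ± 9.85 CPM per kb and ranked 32 among 18202 genes, *Ccl17* had 593.2 ± 73.6 and ranked 36, and *Ccl22* had 177.8 ± 8.02 and ranked 162 (SD, n = 3). *Birc3*, *Ccr7*, *Fscn1* and *Socs2* followed at 31.5, 25.8, 18.7 and 12.7 CPM per kb. *Cd83*, *Il4i1* and *Cd200* were lowest at 9.96, 7.2 and 3.18 CPM per kb, with *Cd200* at rank 8305. The rank of *Ccr7* moved from 1488 in unstimulated shControl to 530 in unstimulated sh*Ppargc1b* and 400 in IFN-β-treated sh*Ppargc1b* cells, and that of *Cd200* from 8305 to 4992 and 2670.

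**Figure D1:**
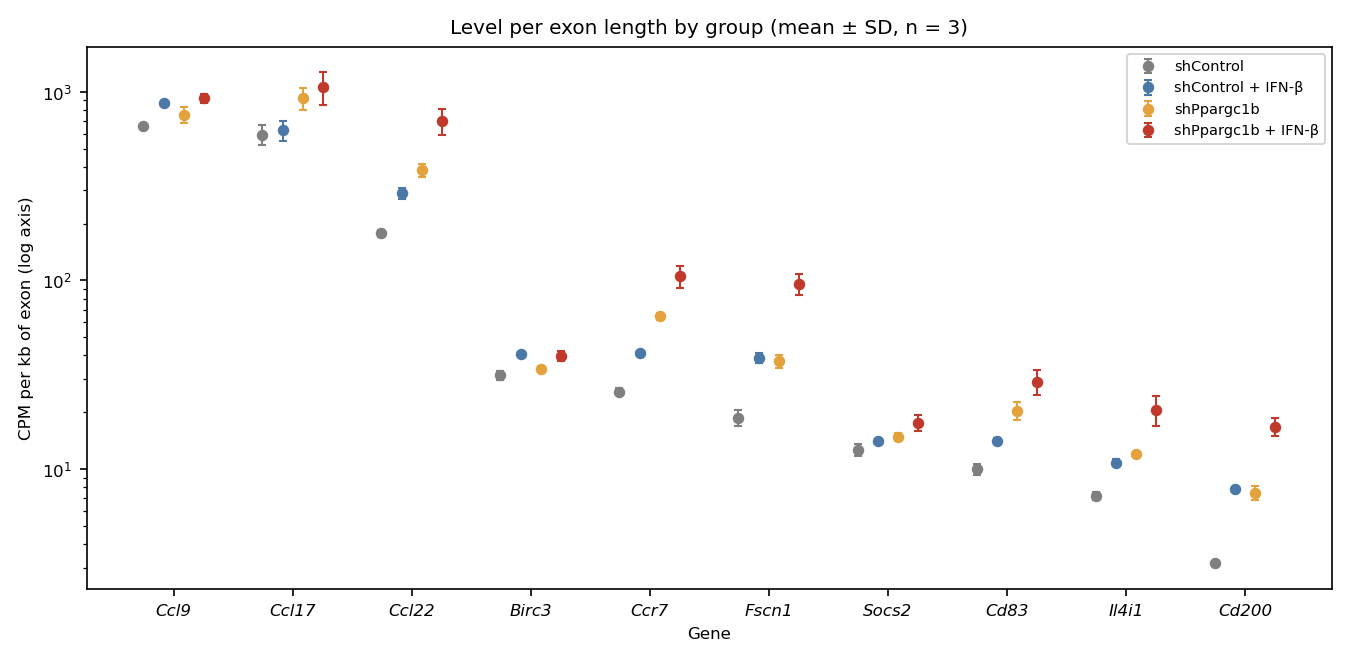
Mean level per kilobase of exon (CPM per kb, log axis) of the 10 genes in the 4 groups, with SD over 3 libraries, ordered by the level in unstimulated shControl cells. *Ccl9* and *Ccl17* were highest in all groups, and *Cd200* was lowest at 3.18 CPM per kb in unstimulated shControl cells.

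*Ccr7*, the receptor that guides mature DCs to lymph nodes, separated all 4 groups. It had 48.21, 52.57 and 52.01 CPM in unstimulated shControl, 82.75, 79.03 and 81.65 in IFN-β-treated shControl, 132.8, 126.7 and 123.0 in unstimulated sh*Ppargc1b*, and 237.9, 186.6 and 198.8 in IFN-β-treated sh*Ppargc1b* libraries. No group overlapped its neighbour, and unstimulated knockdown cells lay above IFN-β-treated control cells. The knockdown difference was 1.32 ± 0.07 in log2 units in unstimulated cells and 1.36 ± 0.07 in treated cells (SE). In a bulk library, more cells that express a gene and more RNA per cell cannot be told apart, which holds for every level given here. The counts measure message, and CCR7 protein on the cell surface was not analysed here. IFN-β raised *Ccr7* by 0.67 ± 0.07 under the control hairpin (adjusted p = 1.13e-06) and by 0.70 ± 0.07 under sh*Ppargc1b* (adjusted p = 6.54e-07).

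*Ccl22*, a ligand of CCR4, had 432.1, 394.8 and 413.6 CPM in unstimulated shControl, 719.5, 632.9 and 667.7 in IFN-β-treated shControl, 946.1, 814.8 and 919.2 in unstimulated sh*Ppargc1b*, and 1860, 1361 and 1673 in IFN-β-treated sh*Ppargc1b* libraries. As for *Ccr7*, no neighbouring groups overlapped, and the highest group mean was 3.95-fold the lowest. *Ccl22* was higher in the knockdown by 1.11 ± 0.09 without and 1.28 ± 0.09 with IFN-β. It rose with IFN-β by 0.70 ± 0.09 in shControl and 0.87 ± 0.09 under sh*Ppargc1b* (adjusted p = 8.75e-06 and 1.19e-06).

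*Ccl17*, the other CCR4 ligand, did not pass the test for IFN-β under either hairpin. The libraries held 337.4, 263.4 and 313.9 CPM in unstimulated shControl and 365.0, 292.0 and 304.1 with IFN-β, against 470.4, 413.5 and 543.7 in unstimulated sh*Ppargc1b* and 604.8, 417.9 and 615.4 with IFN-β. Treated and untreated libraries overlapped under both hairpins, whereas the lowest sh*Ppargc1b* library lay above the highest shControl library. The knockdown differences were 0.64 ± 0.14 and 0.77 ± 0.14. The IFN-β difference of *Ccl17* was 0.07 ± 0.14 in shControl (adjusted p = 0.703) and 0.20 ± 0.14 under sh*Ppargc1b* (adjusted p = 0.271). Leaving out sh*Ppargc1b* IFN-β replicate 2, the lowest library of its group, gave 0.36 (adjusted p = 0.0177) in sh*Ppargc1b* cells. The difference between the responses of *Ccl17* and *Ccl22* was not itself tested.

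**Figure D2:**
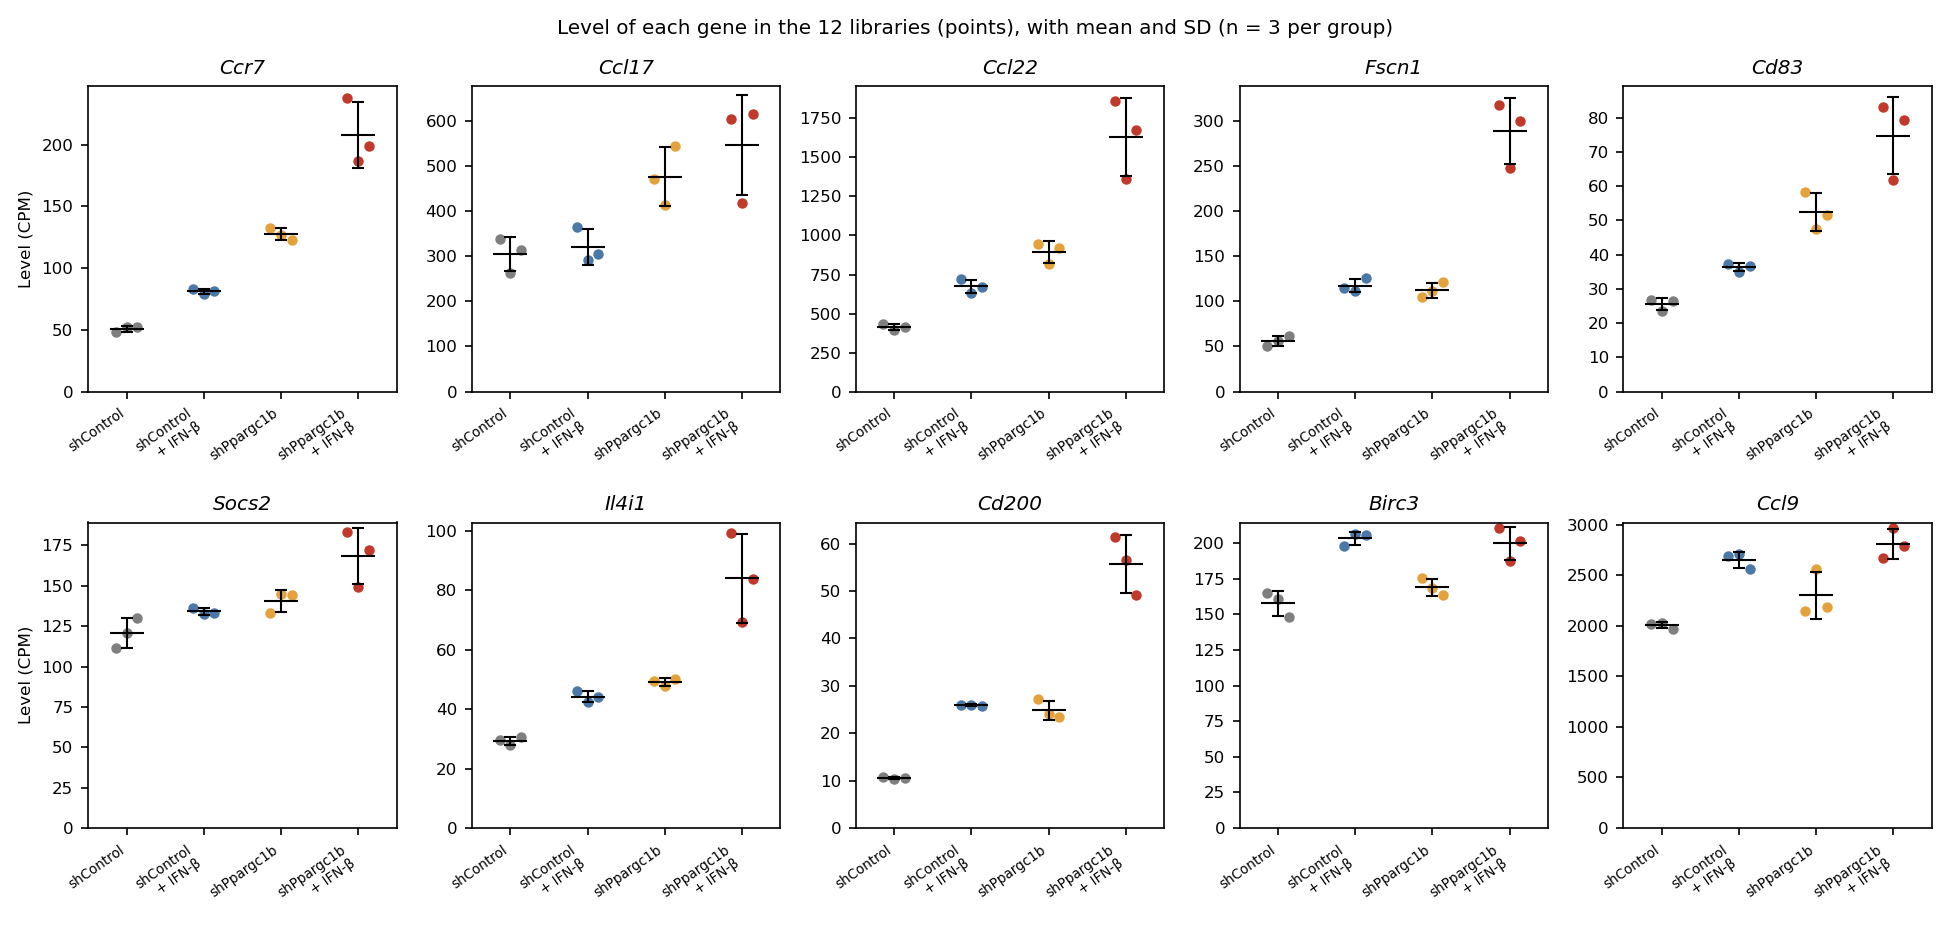
Level of each of the 10 genes (CPM, linear axes from 0) in the 12 libraries, shown as points with the mean and SD of the 3 libraries of each group. The 4 groups of *Ccr7* are separate, from 48.21 CPM in the lowest shControl library to 237.9 CPM in the highest IFN-β-treated sh*Ppargc1b* library, while *Birc3* and *Ccl9* show mainly the IFN-β difference.

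*Ccl9*, the most abundant member, rose with IFN-β under both hairpins. It ranged from 1972 to 2028 CPM in unstimulated shControl and from 2559 to 2704 with IFN-β, and from 2149 to 2564 in unstimulated sh*Ppargc1b* and 2672 to 2970 with IFN-β. The rise was 0.40 ± 0.06 in shControl (adjusted p = 4.71e-05) and 0.29 ± 0.06 under sh*Ppargc1b* (adjusted p = 0.00113). The knockdown groups lay 0.20 ± 0.06 above control without IFN-β, or 0.11 without sh*Ppargc1b* unstimulated replicate 2, and overlapped control with IFN-β (0.08 ± 0.06). Its neighbour on chromosome 11, *Ccl6*, differed in the opposite direction: 5289 ± 232.7 CPM in unstimulated shControl against 3761 ± 194.8 in unstimulated sh*Ppargc1b* cells, a log2 fold change of -0.49 ± 0.05 (adjusted p = 8.27e-06).

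Among genes of the mature DC's shape and surface, *Fscn1* and *Cd200* had the widest range. *Fscn1*, the actin bundler, had 50.68, 56.50 and 62.01 CPM in unstimulated shControl, 115.3, 111.3 and 125.4 in IFN-β-treated shControl, 104.4, 111.1 and 121.4 in unstimulated sh*Ppargc1b*, and 318.1, 248.2 and 299.7 in IFN-β-treated sh*Ppargc1b* libraries. Knockdown alone and IFN-β alone thus reached overlapping levels, and both together gave a group mean 5.12-fold that of unstimulated shControl. The knockdown difference in *Fscn1* was 0.99 ± 0.09 without and 1.30 ± 0.09 with IFN-β, and IFN-β raised it by 1.06 ± 0.09 and 1.36 ± 0.09 (adjusted p = 8.77e-08 and 4.79e-09). *Cd200* had the same pattern at a lower level. Its libraries held 10.71, 10.35 and 10.57 CPM in unstimulated shControl, 26.01, 25.99 and 25.66 in IFN-β-treated shControl, 27.14, 23.96 and 23.39 in unstimulated sh*Ppargc1b*, and 61.36, 56.62 and 49.11 in IFN-β-treated sh*Ppargc1b* cells. The knockdown differences were 1.23 ± 0.08 and 1.11 ± 0.07, and IFN-β raised *Cd200* by 1.30 ± 0.08 in shControl and 1.17 ± 0.07 in sh*Ppargc1b* cells (adjusted p = 1.49e-09 and 3.17e-09).

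*Cd83*, a surface marker of mature DCs, kept the order of *Ccr7*. It had 26.86, 23.66 and 26.35 CPM in unstimulated shControl, 37.35, 34.99 and 36.75 in IFN-β-treated shControl, 58.37, 47.40 and 51.50 in unstimulated sh*Ppargc1b*, and 83.20, 61.87 and 79.21 in IFN-β-treated sh*Ppargc1b* libraries. The 4 groups did not overlap. The knockdown differences were 1.03 ± 0.10 and 1.04 ± 0.10, and IFN-β raised it by 0.51 ± 0.10 in shControl and 0.51 ± 0.09 in sh*Ppargc1b* cells (adjusted p = 0.000502 and 0.000385).

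*Il4i1*, the amino acid oxidase, also ran in that order without overlap, with group means of 29.38 ± 1.34, 44.17 ± 1.81, 49.09 ± 1.26 and 84.05 ± 14.9 CPM (SD, n = 3) for shControl, treated shControl, sh*Ppargc1b* and treated sh*Ppargc1b* cells. IFN-β raised it by 0.59 ± 0.09 and 0.78 ± 0.09 (adjusted p = 7.23e-05 and 4.23e-06), and the knockdown differences were 0.74 ± 0.09 and 0.93 ± 0.09. The count of this gene is uncertain, because 83.9% of its annotated exonic length overlaps exons of *Tbc1d17* on the other strand and how the counting treated strand is not given. *Tbc1d17* itself differed by -0.18 and 0.01 with the knockdown (adjusted p = 0.0852 and 0.916), fell by 0.31 with IFN-β in shControl (adjusted p = 0.00248) and differed by -0.11 in sh*Ppargc1b* cells (adjusted p = 0.253). Shorter stretches were shared with *Nup62* on the same strand (2.38% of the exonic length of *Il4i1*) and *Atf5* on the other (2.01%). With the knockdown *Nup62* differed by 0.06 without IFN-β (adjusted p = 0.497) and was higher by 0.34 with it (adjusted p = 0.000534), and *Atf5* by 0.20 (adjusted p = 0.171) and 0.43 (adjusted p = 0.00714, or 0.0513 without shControl IFN-β replicate 3). With IFN-β both fell in shControl, *Nup62* by 0.39 and *Atf5* by 0.89 (adjusted p = 5.16e-05 and 3.33e-06), where *Il4i1* rose.

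*Birc3* and *Socs2* had the smallest ratio of the highest to the lowest group mean, 1.29 and 1.39, next to 1.40 for *Ccl9*. *Socs2* ranged from 111.7 to 130.1 CPM in unstimulated shControl, from 132.8 to 136.4 with IFN-β, from 132.9 to 144.7 in unstimulated sh*Ppargc1b* and from 149.3 to 183.1 CPM in IFN-β-treated sh*Ppargc1b* libraries. IFN-β raised *Socs2* by 0.26 ± 0.07 in sh*Ppargc1b* cells (adjusted p = 0.00564), whereas the difference of 0.15 ± 0.07 in shControl did not pass (adjusted p = 0.0796). The latter passed when shControl unstimulated replicate 3 (adjusted p = 0.0427) or sh*Ppargc1b* IFN-β replicate 1 (0.0328) or 2 (0.0138) was left out. The knockdown differences of *Socs2* were 0.22 ± 0.07 and 0.33 ± 0.07. *Birc3* had 147.9 to 164.8 CPM in unstimulated shControl and 163.4 to 175.5 in unstimulated sh*Ppargc1b*, against 198.3 to 206.2 and 187.6 to 210.4 CPM with IFN-β. The hairpins overlapped within each treatment (0.10 ± 0.05 and -0.03 ± 0.05). IFN-β raised *Birc3* by 0.37 ± 0.05 in shControl and 0.24 ± 0.05 in sh*Ppargc1b* cells (adjusted p = 1.72e-05 and 0.00103).

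Counted over the list, IFN-β raised 8 of 10 genes in shControl, where 23.7% of all tested genes were called higher, and 9 of 10 in sh*Ppargc1b* cells, where 21.4% were. The treated and untreated libraries did not overlap, with the treated higher, for 9 of 10 genes under each hairpin, against 27.2% and 24.7% of all tested genes. The median log2 fold change of the 10 was 0.55 and 0.61, against -0.03 and -0.02 over all tested genes. No call was lost on leaving out any 1 library. Under scaling by library totals, which moved the median of all genes to -0.27 in shControl and -0.22 in sh*Ppargc1b* cells, the IFN-β calls of *Socs2*, *Birc3* and *Ccl9* in sh*Ppargc1b* cells did not pass (adjusted p = 0.537, 0.547 and 0.226), and the IFN-β differences of *Ccl17* under both hairpins and of *Socs2* in shControl turned negative. For the knockdown, 9 of 10 genes were higher past the threshold without IFN-β and 8 with it, where 12.4% and 11.5% of all tested genes were, with medians of 0.87 and 0.98. Nothing is read from these counts, since the knockdown difference entered the choice of the genes. The group values did not overlap for the same numbers of genes, 9 and 8, against 18.4% and 18.0% of all tested genes.

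The knockdown effect with IFN-β was then compared with that without it. None of the 10 interactions passed in edgeR, where 0.73% of all tested genes did, and 1 of 10 had an unadjusted p under 0.05. That gene was *Fscn1*, with an interaction of 0.30 ± 0.12 (unadjusted p = 0.028, adjusted p = 0.393). It passed when genes of low count were kept in the fit (adjusted p = 0.00765), and none of the 10 passed with DESeq2 or in the other fits. The others ranged from -0.13 ± 0.11 for *Cd200* to 0.19 ± 0.13 for *Il4i1*.

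**Figure D3:**
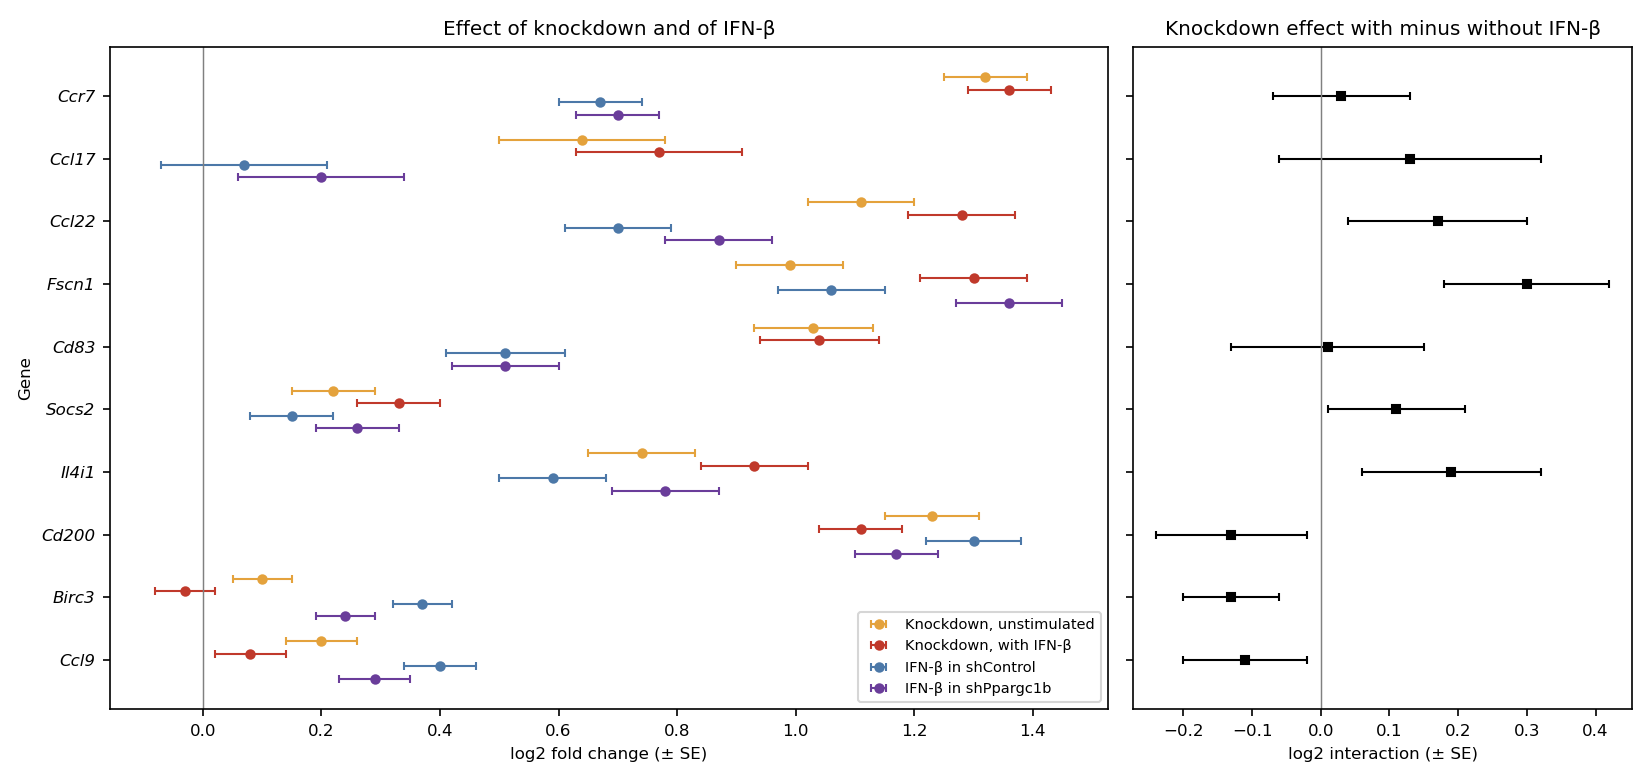
Log2 fold changes with SE of the 10 genes for the knockdown without and with IFN-β and for IFN-β under each hairpin (left), and the interaction with SE (right). *Ccr7* had the largest knockdown difference (1.32 without and 1.36 with IFN-β), *Cd200* and *Fscn1* the largest IFN-β response, and the interaction was at most 0.30, in *Fscn1*.

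Members also varied together within groups. Replicate 1 was the highest library of IFN-β-treated sh*Ppargc1b* cells for 8 of 10 genes and replicate 2 the lowest for 8 of 10. In IFN-β-treated shControl cells replicate 1 was highest for 7 and replicate 2 lowest for 7. Libraries of the same replicate number share a run of consecutive library codes. Without IFN-β no library was highest or lowest for more than 5 of 10. The spread between libraries in IFN-β-treated sh*Ppargc1b* cells is therefore shared by most of the list, and the 10 genes are not 10 independent measurements. Without sh*Ppargc1b* IFN-β replicate 1, the knockdown difference with IFN-β was 1.24 for *Ccr7* and 0.78 for *Il4i1*.

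Across the 12 libraries, the genes whose log2 CPM followed *Ccr7* most closely among 8770 compared were *Cacnb3* (Pearson r = 0.994), *Zfp366* (0.991), *Adcy6* (0.991), *Mreg* (0.991) and *Adgrg6* (0.99). *Cacnb3*, a calcium channel subunit gene, ran from 33.63 CPM in unstimulated shControl over 46.93 and 72.33 to 106.1 CPM in IFN-β-treated sh*Ppargc1b* cells. *Zfp366*, the gene of the DC transcriptional repressor DC-SCRIPT, ran from 12.12 over 17.42 and 24.29 to 39.3 CPM. Of the members, *Ccl22* and *Cd83* came closest (r = 0.986 for both, ranks 11 and 13), then *Il4i1* (0.967), *Cd200* (0.938), *Fscn1* (0.934), *Socs2* (0.907) and *Ccl17* (0.86). *Ccl9* (0.678) and *Birc3* (0.529) followed it least. These correlations describe 12 libraries that share 4 group means. After the group means were removed, r with *Ccr7* was 0.93 for *Cacnb3*, 0.32 to 0.79 for 8 members and -0.45 for *Ccl9*.

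The partners of these genes were counted next, from a list of 8 receptors and ligands of which 4 were tested. *Ccr4*, the receptor of CCL17 and CCL22, was near the limit of detection but higher in the knockdown, at 0.628 ± 0.163 against 1.57 ± 0.178 CPM without and 0.722 ± 0.114 against 2.11 ± 0.504 CPM with IFN-β (log2 fold change 1.32 ± 0.23 and 1.56 ± 0.23, adjusted p = 0.00063 and 0.000142). IFN-β left it at 0.18 and 0.42, not past the threshold. The CCR7 ligand genes *Ccl19* and *Ccl21a* had 0 counts in every library, which allows up to 0.0648 CPM, although both have near-identical copies in the genome and reads from such sequence were not counted. The scavenger receptor gene *Ackr4* had 1 to 9 and *Ccr8* 0 to 3 counts. *Cd200r1*, the inhibitory receptor of CD200, fell with IFN-β by 0.44 and 0.34 (adjusted p = 4.29e-07 and 8.79e-06) and differed by -0.03 and 0.07 with the knockdown (adjusted p = 0.705 and 0.285). *Cd200r4*, an activating relative, rose with IFN-β by 0.32 and 0.26 (adjusted p = 0.000118 and 0.000855), and neither value passed under library totals (0.077 and 0.056, adjusted p = 0.203 and 0.374). It was called lower with the knockdown (-0.15 and -0.21, adjusted p = 0.0445 and 0.00781). The first of these calls was lost without any 1 of 10 libraries (adjusted p up to 0.248), all but shControl unstimulated replicate 2 and sh*Ppargc1b* IFN-β replicate 2. *Ccr1* rose with IFN-β by 0.19 and 0.16 (adjusted p = 0.0148 and 0.0447), and both values turned negative under library totals. In shControl the call needed the first unstimulated library (adjusted p = 0.0925 without it). That in sh*Ppargc1b* cells was lost without sh*Ppargc1b* unstimulated replicate 1 (0.113) or 3 (0.165), replicate 2 (0.0507) or 3 (0.0531) of unstimulated shControl, or the second IFN-β-treated sh*Ppargc1b* library (0.208).

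Of 30 further genes of mature DCs, all tested, 20 were higher and 4 lower in the knockdown without IFN-β, and 19 were higher and 4 lower with it. Of all tested genes, 12.4% and 11.5% were called higher and 11.1% and 12.7% lower. The median log2 fold change of the 30 was 0.50 and 0.36, against -0.00 and -0.01 over all tested genes. The highest without IFN-β were *Tbc1d4* (1.15), *Tnfrsf9* (1.14), *Cacnb3* (1.10) and *Cd86* (0.90), the last of which encodes a costimulatory ligand. With IFN-β they were *Tbc1d4* (1.31), *Cacnb3* (1.18), *Tnfrsf9* (1.12) and *Apol7c* (0.91). The lower genes, named after their values were seen, were *Fabp5* (-0.33), *Il15* (-0.32), *Ebi3* (-0.26) and *Anxa3* (-0.18) without IFN-β, and *Il15* (-0.41), *Icosl* (-0.29), *Fabp5* (-0.28) and *Il15ra* (-0.21) with it. The call of *Anxa3* was lost without shControl unstimulated replicate 2 (adjusted p = 0.0673), and that of *Il15ra* without shControl IFN-β replicate 2 (0.0719). *Icosl* (adjusted p = 0.0497) kept its call only without sh*Ppargc1b* IFN-β replicate 1 or 3 among the fits that left out 1 library. The list was written with earlier results of these data known, so its counts are no independent evidence of direction.

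IFN-β raised 24 of the 30 and lowered none in shControl, and raised 26 and lowered 1, *Adam8* (-0.23), in sh*Ppargc1b* cells. Of all tested genes, 23.7% and 21.4% were called higher and 24.6% and 21.2% lower. The call of *Adam8* was lost without sh*Ppargc1b* unstimulated replicate 1 (adjusted p = 0.113) or 2 (0.0687), or sh*Ppargc1b* IFN-β replicate 1 (0.149) or 3 (0.09). The strongest responses in shControl exceeded those of every member: *Cd40* rose by 4.0, *Il15ra* by 3.24, *Cd86* by 2.13 and *Il15* by 2.03. In sh*Ppargc1b* cells these rose by 3.23, 2.51, 1.56 and 1.94, also above every member. There *Apol7c* (1.67), *Marcksl1* (1.58) and *Serpinb9* (1.58) rose more than *Cd86*. Interactions passed for 3 of the 30, all negative, and for none of the 10 members. Of all tested genes 0.73% passed, and 122 of those 133 genes were negative. The 3 were *Cd40* (-0.77 ± 0.14, adjusted p = 0.0214), *Il15ra* (-0.73 ± 0.09, adjusted p = 0.00261) and *Cd86* (-0.57 ± 0.06, adjusted p = 0.000743). The knockdown difference of *Cd40* was 0.76 without IFN-β (4.01 ± 0.42 against 6.78 ± 1.08 CPM) and -0.01 with it (64.2 ± 4.65 against 63.8 ± 4.23 CPM). The call of *Cd40* was lost without shControl unstimulated replicate 1 (adjusted p = 0.0507) or 3 (0.103), shControl IFN-β replicate 2 (0.0522), or sh*Ppargc1b* unstimulated replicate 2 (0.0783) or 3 (0.0799).

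**Figure D4:**
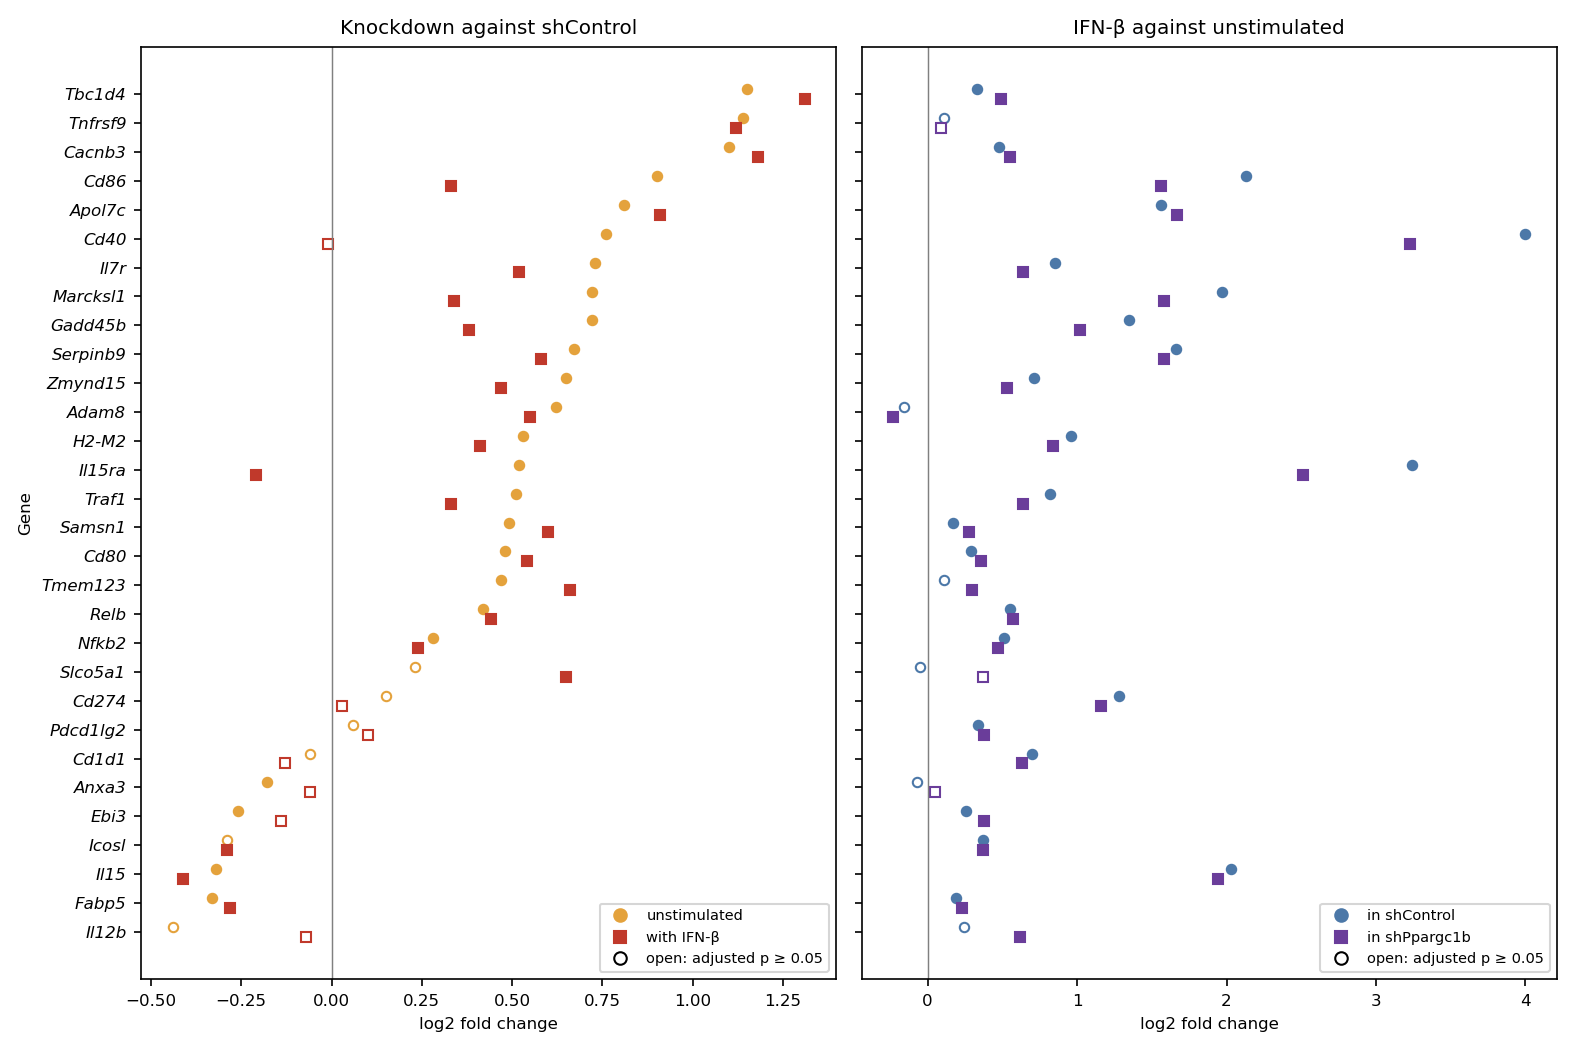
Log2 fold changes of 30 further mature DC genes for the knockdown without and with IFN-β (left) and for IFN-β under each hairpin (right), ordered by the first. Filled symbols passed an adjusted p of 0.05, which 20 genes did upward without IFN-β, and *Cd40* went from 0.76 without to -0.01 with IFN-β.

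Other chemokine ligands of myeloid cells were compared with *Ccl17*, *Ccl22* and *Ccl9*. Of 16 tested, 10 were higher and 1 lower in the knockdown without IFN-β, and 8 were higher and 3 lower with it, beside 12.4% and 11.1%, and 11.5% and 12.7%, of all tested genes. *Cx3cl1*, which lies between *Ccl22* and *Ccl17*, had 15.2 ± 1.52 and 44.3 ± 2.16 CPM without and 21.1 ± 0.803 and 55.9 ± 1.26 CPM with IFN-β in shControl and sh*Ppargc1b* cells (log2 fold change 1.54 ± 0.07 and 1.40 ± 0.06, adjusted p = 1.92e-09 and 6.23e-09). It rose with IFN-β by 0.47 and 0.34 (adjusted p = 2.28e-05 and 0.000365), and the second of these did not pass under library totals (adjusted p = 0.0769). The other large knockdown differences without IFN-β were *Ccl12* (1.84 ± 0.40), *Ccl24* (1.68 ± 0.22) and *Ccl5* (1.47 ± 0.10). *Ccl12* was near the limit of detection there, at 0.216 ± 0.0944 CPM in shControl against 0.767 ± 0.266 CPM in sh*Ppargc1b* cells. Its knockdown difference with IFN-β was 0.30 ± 0.18, not past the threshold (adjusted p = 0.271). *Ccl24* was also low, at 4.82 ± 1.37 CPM in unstimulated sh*Ppargc1b* cells. With IFN-β, *Ccl24* (1.71) and *Cxcl3* (1.20) were higher and the interferon-inducible *Cxcl9* was lower (-1.39). IFN-β raised 11 of 16 and lowered none in shControl, where it raised 23.7% and lowered 24.6% of all tested genes, led by *Cxcl11* (7.28), *Cxcl9* (7.01), *Cxcl10* (6.44) and *Ccl12* (6.01). In sh*Ppargc1b* cells it raised 10, led by *Cxcl11* (6.76), *Cxcl10* (5.96), *Cxcl9* (5.64) and *Ccl12* (4.47), and lowered 1, against 21.4% and 21.2% of all tested genes. That 1 was *Cxcl2* (-0.33, adjusted p = 0.0412), whose call was lost without any unstimulated sh*Ppargc1b* library, sh*Ppargc1b* IFN-β replicate 1 or 3, or replicate 3 of either shControl group (adjusted p up to 0.185). These responses were far above the 0.70 and 0.87 of *Ccl22*. *Ccl5* was the 1 ligand of the 16 whose interaction passed (-0.85 ± 0.13, adjusted p = 0.0094), against 0.73% of all tested genes.

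NF-κB drives many genes of DC maturation, and *Birc3* is among its known targets. Of 16 genes of this pathway, 11 were higher and none lower in the knockdown without IFN-β, and 8 were higher and none lower with it, with medians of 0.26 and 0.12. Over all tested genes the shares were 12.4% higher and 11.1% lower without and 11.5% and 12.7% with IFN-β. *Tnfaip3* (0.57), *Traf1* (0.51), *Map3k14* (0.46) and *Relb* (0.42) led without IFN-β, and *Map3k14* (0.58), *Relb* (0.44), *Traf1* (0.33) and *Nfkb2* (0.24) with it. *Map3k14*, *Relb* and *Nfkb2* encode the kinase and subunits of the noncanonical branch. IFN-β raised 13 and lowered 1 in shControl, led by *Traf1* (0.82), *Nfkbib* (0.76), *Tnfaip3* (0.66) and *Rel* (0.64), and raised 12 and lowered 1 in sh*Ppargc1b* cells. Of all tested genes, 23.7% and 21.4% were raised and 24.6% and 21.2% lowered. The gene of the 16 lowered under both hairpins was *Ikbkg* (-0.24 and -0.27), named after its values were seen. *Relb*, *Nfkb2* and *Traf1* also stood in the list of 30 mature DC genes.

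Family members of *Socs2* and *Birc3* were compared next. Among 7 other SOCS genes, *Socs3* was higher (0.52 and 0.34, adjusted p = 0.000913 and 0.0165) and *Socs6* lower (-0.57 and -0.31, adjusted p = 7.55e-06 and 0.00163). The second call of *Socs3* was lost without sh*Ppargc1b* IFN-β replicate 2 (adjusted p = 0.0926) or shControl IFN-β replicate 3 (0.09). *Cish* was also higher in the knockdown with IFN-β (0.28, adjusted p = 0.0323), a call lost without replicate 2 or 3 of either treated group (adjusted p up to 0.168). *Socs1*, the main suppressor of interferon signalling in the family, rose with IFN-β by 1.82 and 1.49 (adjusted p = 2.29e-12 and 3.28e-11), against 0.15 and 0.26 for *Socs2*. Of 7 other IAP genes, 1 was higher and 3 lower in the knockdown without IFN-β, and none higher and 4 lower with it. Of all tested genes, 12.4% were higher and 11.1% lower without IFN-β, and 11.5% and 12.7% with it. *Birc2*, which encodes cIAP1 and lies beside *Birc3* on chromosome 9, was higher by 0.30 without IFN-β (adjusted p = 0.000897) and differed by 0.14 with it (adjusted p = 0.0822). IFN-β raised *Birc2* by 0.59 and 0.43 (adjusted p = 2.8e-07 and 1.19e-05). *Naip6* had the largest fall in the family with the knockdown (-0.53 and -0.48, adjusted p = 4.83e-07 and 1.72e-06), though the *Naip* genes are near copies of one another and their counts are uncertain.

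Genes of migration and the actin cytoskeleton, the setting of *Ccr7* and *Fscn1*, were called in both directions. Of 15 tested, 4 were higher and 5 lower in the knockdown without IFN-β, where 12.4% and 11.1% of all tested genes were, and 4 were higher and 4 lower with it, where 11.5% and 12.7% were. The inflammatory monocyte receptor gene *Ccr2* was the lowest, at 721.9 ± 101.7 against 385.3 ± 51.75 CPM without and 541.8 ± 83.16 against 338.1 ± 67.89 CPM with IFN-β (log2 fold change -0.91 ± 0.15 and -0.68 ± 0.15, adjusted p = 0.000311 and 0.00308). *Cxcr4*, another receptor of mature DCs, was higher (0.46 and 0.54, adjusted p = 0.000558 and 0.000158). The adhesion gene *Icam1* was higher by 0.47 without IFN-β (adjusted p = 7.43e-06), and *Coro1a*, an actin regulator, by 0.53 with it (adjusted p = 3.83e-06). *Actg1*, which is named outside the naming rule given below, differed by 0.04 in both treatments (adjusted p = 0.673 and 0.648). It was 1 of 6 genes of this list not past the threshold without IFN-β and 1 of 7 with it.

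Markers of other cells moved beside the knockdown differences of *Ccr7*, *Ccl22*, *Cd83* and the rest. Of 9 tested DC markers, 4 were higher without IFN-β and 5 with it, where 12.4% and 11.5% of all tested genes were. *Zbtb46*, the transcription factor gene of conventional DCs, was higher by 0.61 and 0.65 (adjusted p = 0.000157 and 0.000104) and *Irf4* by 0.48 and 0.66 (adjusted p = 3.91e-05 and 2.46e-06). *Flt3* (0.57 and 0.81), *Itgax* (0.26 and 0.20) and, with IFN-β, *Dpp4* (0.42) were also called. The call of *Flt3* without IFN-β was lost without replicate 1 or 3 of unstimulated shControl, replicate 1 or 2 of unstimulated sh*Ppargc1b*, or replicate 1 of treated shControl cells (adjusted p up to 0.155). That of *Dpp4* was lost without sh*Ppargc1b* IFN-β replicate 1 or 3 or shControl IFN-β replicate 2 (up to 0.123), and that of *Itgax* with IFN-β without shControl IFN-β replicate 2 or 3 (up to 0.0799). The summed level of 10 macrophage markers was 2860 to 3036 CPM in unstimulated shControl and 2605 to 2682 in unstimulated sh*Ppargc1b* libraries, and 3631 to 3892 against 3161 to 3346 CPM with IFN-β. None of the 10 was higher, and 3 were lower without and 5 with IFN-β, where 11.1% and 12.7% of all tested genes were. *Mrc1* had the largest fall (-1.51 and -1.42, adjusted p = 1.99e-07 and 5.83e-07). The 6 neutrophil markers summed to 39.3 to 86.5 CPM in unstimulated shControl and 85.3 to 148 in unstimulated sh*Ppargc1b* libraries, and to 36.3 to 91.7 against 82.0 to 154 CPM with IFN-β. *Ly6g* and *Retnlg* were under 1 CPM in all groups, and 1 of 6, *S100a8*, was called higher in both treatments. The call of *S100a8* without IFN-β was lost without sh*Ppargc1b* unstimulated replicate 3 or replicate 1 or 3 of unstimulated shControl (adjusted p up to 0.148). It was also lost with the DESeq2 Wald test (adjusted p = 0.0617). The call with IFN-β (0.88) was lost without replicate 1 or 3 of either treated group (adjusted p up to 0.121). The 6 mast cell or basophil markers summed to 8.71 to 16.6 CPM in unstimulated shControl and 22.1 to 25.7 in unstimulated sh*Ppargc1b* libraries, and to 7.64 to 14.6 against 12.8 to 21.1 CPM with IFN-β. *Fcer1a* and *Ms4a2* were under 1 CPM in all groups, and 2 of 6, *Gata2* and *Kit*, were called higher in both treatments. The 4 plasmacytoid DC markers summed to 86.16 to 110.7 CPM in unstimulated shControl against 133.3 to 156.9 in unstimulated sh*Ppargc1b* libraries, and to 192.9 to 211.6 against 210.1 to 217.2 CPM with IFN-β. Nearly all of this was *Tcf4*, which conventional DCs also express, whereas *Siglech* and *Klk1* were under 1 CPM in all groups. *Tcf4* was higher with the knockdown by 0.56 without IFN-β (adjusted p = 5.42e-05) and differed by 0.07 with it (adjusted p = 0.574). It rose with IFN-β by 1.05 and 0.56 (adjusted p = 1.15e-08 and 1.73e-05), as did *Ccr9* by 0.89 and 0.88 (adjusted p = 0.00649 and 0.00665), and *Ccr9* did not pass with the knockdown. The part of the culture's makeup in the knockdown differences of the 10 genes was not tested.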

How the data were processed

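Total RNA of 12 libraries was depleted of ribosomal RNA and sequenced as read pairs. The authors trimmed adapters (Trim Galore 0.6.0, per the submitters' processing notes), mapped to mm10 with STAR, and counted uniquely mapped reads per GENCODE gene. The deposited values were raw counts per gene and library, neither normalized nor pooled. Whether strand was used in counting is not given in the sources used here.

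Groups were taken from the sample titles. Replicate numbers follow record order, so libraries of the same number share a run of consecutive library codes. The labels do not say whether these libraries were paired, and the main fit did not pair them. The fits used edgeR 4.0.16 (R 4.3.3): filterByExpr (minimum count 10, minimum total 15) kept 18228 genes with 99.96% of the counts, libraries were scaled by TMM, and a model with 1 mean for each group took in all 12 libraries. Contrasts were tested by two-sided quasi-likelihood F-tests, with Benjamini-Hochberg adjustment across the tested genes at a threshold of 0.05, and every adjusted p comes from this test unless another is named. The common dispersion was 0.00577. The procedure was tested on simulated data. Replicates differed by more than sampling noise (chi-square per degree of freedom 8.54 to 21.3).

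Gene positions and exon lengths came from GENCODE M21 on GRCm38, a later release than that of the authors, and promoters from RefSeq (GRCm38.p6). The members, gene lists, tests and alternatives were chosen with earlier results of these data known. All 10 members were named. From each other list the text names up to 4 genes with the largest change past the threshold and the receptors, ligands, neighbours and paralogs of members. Genes like *Ccr7* were sought among those with a mean log2 CPM of at least 3 (prior count 2). Intervals and floors cover counting error only.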

Additional observations from a re-analysis of the deposited data

Results flagged for a closer look

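Of the 133 tested genes whose interaction passed in edgeR, 122 were negative. The gene and marker lists used here held 5 of the 133, all outside the 10 members. In these 5 the response to IFN-β was smaller in sh*Ppargc1b* than in shControl cells. *Cd40* had an interaction of -0.77 (adjusted p = 0.0214), *Cd86* of -0.57 (adjusted p = 0.000743), *Il15ra* of -0.73 (adjusted p = 0.00261), *Ccl5* of -0.85 (adjusted p = 0.0094) and *Tcf4* of -0.49 (adjusted p = 0.0438). In each the level in shControl rose with IFN-β, from 4.01 to 64.2 CPM for *Cd40*, 41.1 to 180.0 for *Cd86*, 11.1 to 104.5 for *Il15ra*, 22.5 to 120.0 for *Ccl5* and 96.09 to 199.5 for *Tcf4*. In sh*Ppargc1b* cells the same genes rose from 6.78 to 63.8, 76.8 to 226.7, 15.9 to 90.5, 62.3 to 183.8 and 141.7 to 208.9 CPM. The call of *Cd40* was lost without any 1 of 5 libraries: sh*Ppargc1b* unstimulated replicate 2 or 3, shControl IFN-β replicate 2, or shControl unstimulated replicate 1 or 3 (adjusted p from 0.0507 to 0.103). That of *Tcf4* was lost under library totals (adjusted p = 0.0703) and without any 1 of 9 libraries (up to 0.127), all but the first shControl library of each treatment and sh*Ppargc1b* IFN-β replicate 2. Libraries were not tested as outliers, and each group held only 3.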

How the results depend on the processing

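The number of genes whose interaction passed was 133, and it moved to 84 under library totals, 449 with the DESeq2 Wald test, 525 without the filter on low counts and 425 with a block for each run of consecutive library codes. Leaving out 1 library gave 36 (without shControl unstimulated replicate 3) to 271 (without sh*Ppargc1b* IFN-β replicate 2), and the cause was not tested. The other 4 gene counts stayed within 1.5 times under every alternative. Library totals moved the share of calls that were higher with IFN-β from 49.0% to 23.9% in shControl and from 50.2% to 23.7% in sh*Ppargc1b* cells, and the share of positive interactions from 8.27% to 20.2%. They turned *Ccl17* to -0.17 in shControl and -0.004 in sh*Ppargc1b*, *Socs2* to -0.089 in shControl, and *Ccr1* to -0.051 and -0.048. They lost the calls of *Socs2* (0.06), *Birc3* (0.04) and *Ccl9* (0.09) in sh*Ppargc1b* cells. On leaving out 1 library, the IFN-β difference of *Ccl17* in shControl ranged from -0.039 (without shControl unstimulated replicate 2, and -0.016 without shControl IFN-β replicate 1) to 0.154. The interaction of *Ccr7* ranged from -0.091 (without sh*Ppargc1b* IFN-β replicate 1, and -0.003 without shControl IFN-β replicate 2) to 0.091. That of *Cd83* was -0.002 without the filter and ranged from -0.091 to 0.114 on leaving out 1 library, negative in 5 of 12 cases. Without the filter, *Ccl17* passed in sh*Ppargc1b* cells (0.18, adjusted p = 0.00126) and *Socs2* in shControl (adjusted p = 0.0336), which also passed in a fit of the 2 groups alone (0.015). The labels give no replicate numbers, so the block for each run of codes, which holds 1 library of each group, was the only blocked fit. Libraries of the same run of codes deviated together weakly (r from 0.0276 to 0.146, over 0.1 in 5 of 18 pairs), although all 12 correlated best within their run, which is a hint from the data and not the design. At the lowest member count, the counting error of 4.1% was small beside most differences reported.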
